A study of Mus musculus with 4 samples.

Results

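The genes described are the V (variable) and J (joining) segments of the T cell receptor alpha locus on mouse chromosome 14, in 4 RNA sequencing libraries of sorted thymocytes. A gene belonged to the set if GENCODE M21 placed it on chromosome 14 with a symbol of Trav or Traj followed by a number. This gave 162 of the 35275 genes of the count table, 103 V and 59 J segments; 26 further annotated segments, Traj47 and Trav11n among them, were not analysed here. The mice were C57BL/6, aged 6 to 8 weeks and untreated. Uba3F/F mice, which carry the floxed gene without its deletion, are called WT. Uba3ΔT mice, labelled Uba3-/-, are meant to lack Uba3 in T cells, a gene whose product helps to charge the ubiquitin-like protein NEDD8, and are called KO; the Cre driver and the number of mice per library are not given in the sources used here. Thymocytes of each genotype were sorted as group 2 (TCRβint CD69hi) and group 3 (TCRβhi CD69hi), and each of the 4 groups is 1 library. Differences between libraries therefore have no replicate check, and 95% intervals cover counting error only.

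The libraries held 8043077 to 10299863 counts. Group and genotype follow the sample titles, because another label field sets them differently, with the WT pair under group 2 and the KO pair under group 3. Ccr7, a chemokine receptor of maturing thymocytes, had 2052 and 1412 counts in the WT and KO group 2 libraries and 4830 and 5703 in group 3, which is the order the titles give. Uba3 went against its label, at 43.2 CPM (counts scaled to library size) in WT against 73.3 in KO for group 2, and at 43.7 against 89.9 for group 3. Counts over the whole gene cannot show which exons were kept, so KO stands for the label alone in every ratio. CPM use the TMM factors of edgeR, and values in a row of 4 run from WT (group 2, then group 3) to KO (group 2, then group 3).

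The alpha chain is made in double-positive thymocytes, where the RAG recombinase joins a V segment to a J segment, and splicing joins that unit to the constant region Trac. The first joins tend to use V segments near the J cluster and J segments at its 5′ end, started from the TEA promoter ahead of the first J segment. While RAG stays on, later joins replace the first with V segments farther upstream and J segments farther downstream, until selection ends the process. Unspliced transcripts also hold the J segments between the joined J and Trac. In C57BL/6 mice the V array has copied blocks, whose segments carry a d or n in their names.

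J segments hold a stretch that codes for a Phe-Gly-X-Gly turn of the receptor. It was read here as TTNGGNNNNGG or TGGGGNNNNGG on either strand of the annotated segment. TTN also covers Leu codons and the reading frame was not checked, so a match need not code for this turn. The first form was found in 45 J segments and the second alone in 1, while 2 segments held both and are counted under the first. None had it on the reverse strand, and 13 had neither; 44 of 50 J genes and 2 of 9 J pseudogenes held a form. In V segments 0 of 601 windows of 61 bases, the median J length, held it. Sequences are shown 5′ to 3′ on the plus strand, from GENCODE M21 transcripts (GRCm38, mm10), with the motif in capitals. They are the 4 J segments with the largest share of J counts, of which 3 lack the motif; Traj18 and Traj33, the J segments of the invariant NKT and MAIT receptors; and Traj61 and Traj50 of the 5′ end, which were low in the library labelled KO in group 3.
Traj8, chr14:54209918-54209954: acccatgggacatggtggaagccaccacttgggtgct
Traj19, chr14:54200386-54200446: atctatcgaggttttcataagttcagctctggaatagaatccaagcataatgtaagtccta
Traj20, chr14:54199441-54199498: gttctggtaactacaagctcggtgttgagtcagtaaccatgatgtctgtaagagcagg
Traj17, chr14:54201775-54201837: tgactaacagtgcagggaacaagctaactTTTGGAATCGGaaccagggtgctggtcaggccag
Traj18, chr14:54200777-54200842: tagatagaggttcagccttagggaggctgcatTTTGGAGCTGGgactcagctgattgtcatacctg
Traj33, chr14:54185358-54185414: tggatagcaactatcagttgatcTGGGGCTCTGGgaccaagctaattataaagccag
Traj61, chr14:54155005-54155076: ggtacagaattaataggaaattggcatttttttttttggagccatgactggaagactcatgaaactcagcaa
Traj50, chr14:54167590-54167652: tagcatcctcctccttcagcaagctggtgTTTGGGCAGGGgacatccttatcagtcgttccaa
Traj8 is annotated as a pseudogene of 37 bases, and Traj61 as one of 72 bases. The 13 J segments without a motif held 35.2%, 39.4%, 34.6% and 35.3% of the J counts of the 4 libraries. A missing match says only that these letters are not in the annotated segment.

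V copies can be nearly or fully identical, so a read may not be assignable to 1 of them. The Trav14-2 family members show this over 60 bases, with the bases that differ between Trav14-2 and its d and n copies in capitals.
Trav14-2: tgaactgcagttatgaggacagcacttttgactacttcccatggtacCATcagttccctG
Trav14d-2: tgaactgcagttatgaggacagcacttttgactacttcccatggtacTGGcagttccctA
Trav14n-2: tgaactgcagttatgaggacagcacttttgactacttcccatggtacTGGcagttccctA
Over 250 aligned bases Trav14-2 differed from Trav14d-2 at 7, and Trav14d-2 from Trav14n-2 at 0. Trav14-2 had 121, 78, 113 and 150 counts, and both copies were listed at 0 in every library. In all, 21 V segments were listed at 0 throughout, and all 21 were d or n copies. Of these 21, 20 had no run of 50 bases that is absent from the transcripts of every other annotated gene, and the last had such runs at 0.329% of its positions. Among the 82 V segments with counts, the median share of such runs was 49.7%, and 13 had none. One of those 13, Trav7-2, had 406 counts over the 4 libraries. Its runs were read from a GENCODE M21 transcript of 336 bases, while the deposited RPKM divide its counts by 401 bases. Counted bases outside that transcript were not read, and they may hold runs of its own. The 10 V segments with over 90% of their runs to themselves all had counts. No J segment was at 0 in all libraries. Which copy was transcribed cannot be read from such a 0.

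**Figure D1:**
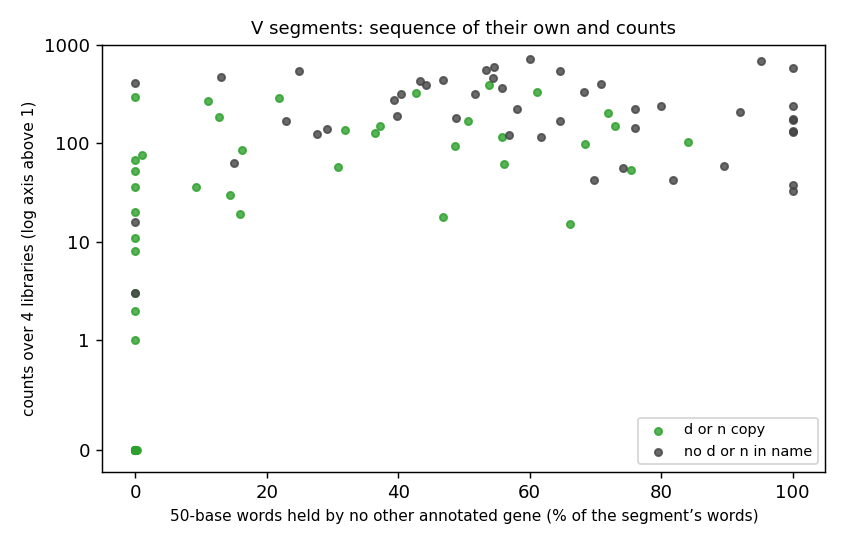
Counts of the 103 V segments over the 4 libraries (y axis, logarithmic above 1) against the share of their runs of 50 bases that no other annotated gene holds (x axis, %); points are segments, green for d or n copies. The 21 segments at 0 counts all lie at the left edge, at 0 to 0.329%.

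J transcripts were lower in the libraries labelled KO than in WT, and lower in group 3 than in group 2 of each genotype. The summed J level was 261, 183, 174 and 134 CPM, from 2735, 1494, 1536 and 1280 counts. The library labelled KO had 0.668 of the WT level in group 2 (interval 0.627 to 0.711) and 0.734 in group 3 (0.680 to 0.791). Group 3 had 0.703 of the group 2 level in WT (0.660 to 0.749) and 0.773 in the libraries labelled KO (0.717 to 0.833). WT group 2 was thus the highest, KO group 3 the lowest, and WT group 3 and KO group 2 lay between them. In bulk libraries, fewer cells that carry such transcripts and less of this RNA per cell cannot be told apart.

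V transcripts followed another order. Their sum was 454, 393, 419 and 485 CPM, from 4767, 3208, 3696 and 4616 counts. The library labelled KO had 0.922 of the WT level in group 2 (0.883 to 0.962) and 1.23 of it in group 3 (1.18 to 1.29). The step from group 2 to group 3 gave 0.866 in WT (0.828 to 0.906) and 1.16 in the libraries labelled KO (1.11 to 1.21). Trac, the constant region that every alpha transcript carries, had 2129, 2376, 2610 and 2082 CPM, with KO over WT ratios of 1.23 (1.20 to 1.25) and 0.876 (0.859 to 0.894). The V sum and Trac stood on opposite sides of WT in both sorted groups. Over the V segments without d or n copies, the group 2 ratio was 0.984 (0.936 to 1.03), which counting error does not separate from 1. For Trac edgeR's quasi-likelihood test gave a shared genotype effect of 0.05 (log2, SE 0.12, adjusted p = 0.95).

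J counts were thus fewer per V count in the libraries labelled KO. There were 57.4 J counts per 100 V counts in WT group 2 (54.7 to 60.1) and 41.6 in KO group 2 (39.1 to 44.1). In group 3 the values were 46.6 in WT (43.8 to 49.5) and 27.7 in KO (26.0 to 29.5). Per 100 Trac counts, J counts numbered 12.2, 7.71, 6.67 and 6.46, where WT group 2 stood apart and the libraries labelled KO lay close together.

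**Figure D2:**
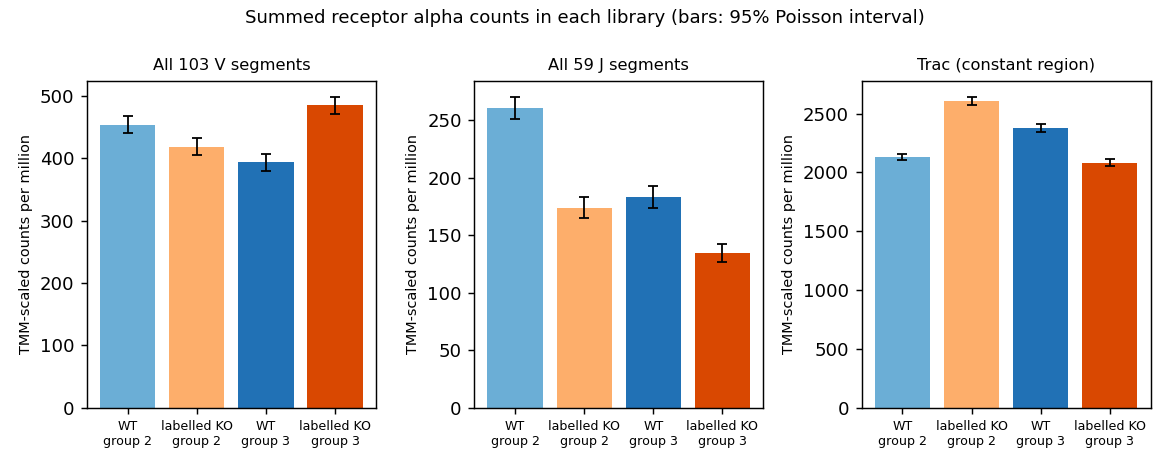
Summed TMM-scaled CPM (y axes, from 0) of the 103 V segments, the 59 J segments and Trac in the 4 libraries; bars are single libraries and error bars are 95% Poisson intervals. The J sum descends from 261 CPM in WT group 2 to 134 in KO group 3, while the V sum is highest in KO group 3 at 485.

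The lower J sum was spread over most J segments. Over every J segment, 46 of 59 were lower in the library labelled KO in group 2 and 41 of 59 in group 3. From group 2 to group 3, 42 of 59 were lower in WT and 41 of 59 in the libraries labelled KO; the genotype and step comparisons share libraries. Of the 59, 32 reached 2 CPM in at least 1 library and count as measured, 17 in all 4 libraries and 4 in WT libraries alone. Their median log2 ratio of CPM plus 0.5 for KO over WT was -0.58 in group 2 (31 of 32 below 0) and -0.51 in group 3 (25 of 32 below 0). All 12490 measured genes had medians of 0.00 and -0.01, with 49.6% and 50.8% below 0. For the step the J medians were -0.45 in WT (29 of 32 below 0) and -0.41 in the libraries labelled KO (24 of 32 below 0). All measured genes had step medians of -0.003 and -0.009, with 50.3% and 51.0% below 0. The J segments without the motif had 0.656 and 0.657 of the WT sum in groups 2 and 3, and those with it 0.674 and 0.783.

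Both KO libraries lay below both WT libraries for 15 of the 32 measured J segments (46.9%), a pattern that 19.7% of all measured genes showed. The opposite order held for 1 of 32, Traj58, against 18.8% of genes. Over all J segments it was 20 of 59 lower and 3 of 59 higher, against 14.4% of genes with a count in each direction. Both group 3 libraries lay below both group 2 libraries for 11 of 32 (16.2% of genes) and above them for 0 of 32 (16.1%). The 15 included Traj8, Traj19, Traj17, Traj21 and Traj27 of the most counted segments, and Traj61, Traj60, Traj59, Traj51 and Traj50 at the 5′ end.

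No single J segment passed the test across both sorted groups. In edgeR's quasi-likelihood test, 0 members rose and 0 fell for the shared genotype effect, where 2.95% of genes rose and 1.87% fell. DESeq2 also called 0 members. At an unadjusted p under 0.05, where 6.12% of genes were lower and 7.08% higher, Traj19 and Traj50 were the lower members and Trav5-4 the higher one. Traj19 had 23.8, 15.8, 12.5 and 10.4 CPM, with both KO libraries below both WT libraries. Its shared genotype effect was -0.77 (log2, SE 0.26, edgeR adjusted p = 0.0517). Traj50 had 7.05, 6.62, 4.08 and 1.89 CPM and an effect of -1.26 (SE 0.54, edgeR adjusted p = 0.213). Trav5-4 had 6.76, 8.46, 9.51 and 14.6 CPM and an effect of 0.64 (SE 0.32, edgeR adjusted p = 0.36). In counts simulated for this comparison on 12490 genes, 46.5% of genes changed 2-fold were recovered. The changed genes were drawn from all levels of at least 2 CPM, with the same dispersion for every gene. Recovery at the low levels of most J segments was not measured apart.

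Most J counts lay near the 3′ end of the cluster, which spans 63.8 kb; they count J transcripts, spliced or not, rather than joins. With the segments split by order into 3 parts of like number, the 19 of the 3′ part held 54.2%, 55.6%, 57.6% and 52.3% of J counts. The 5 most counted J segments of each library held 35.7%, 38.0%, 36.5% and 38.0% of its J counts. Traj8 had 201, 141, 146 and 100 counts, a mean share of 8.53%. Traj19 and Traj20 followed, with 8.17% and 8.13%, and lie within 1 kb of each other. Traj17, which holds the motif, had a mean share of 7.53%, and Traj21, Traj27, Traj33, Traj9, Traj18 and Traj28 had 3.29% to 4.17% each. Shares of neighbours in this order overlapped between libraries. Per length, in deposited RPKM, Traj8 stood at 279 to 527 across libraries and Traj20 at 217 to 370. Traj1, the last segment by position, had 4 to 6 counts, and the first, Traj61, had 47, 36, 18 and 12.

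**Figure D3:**
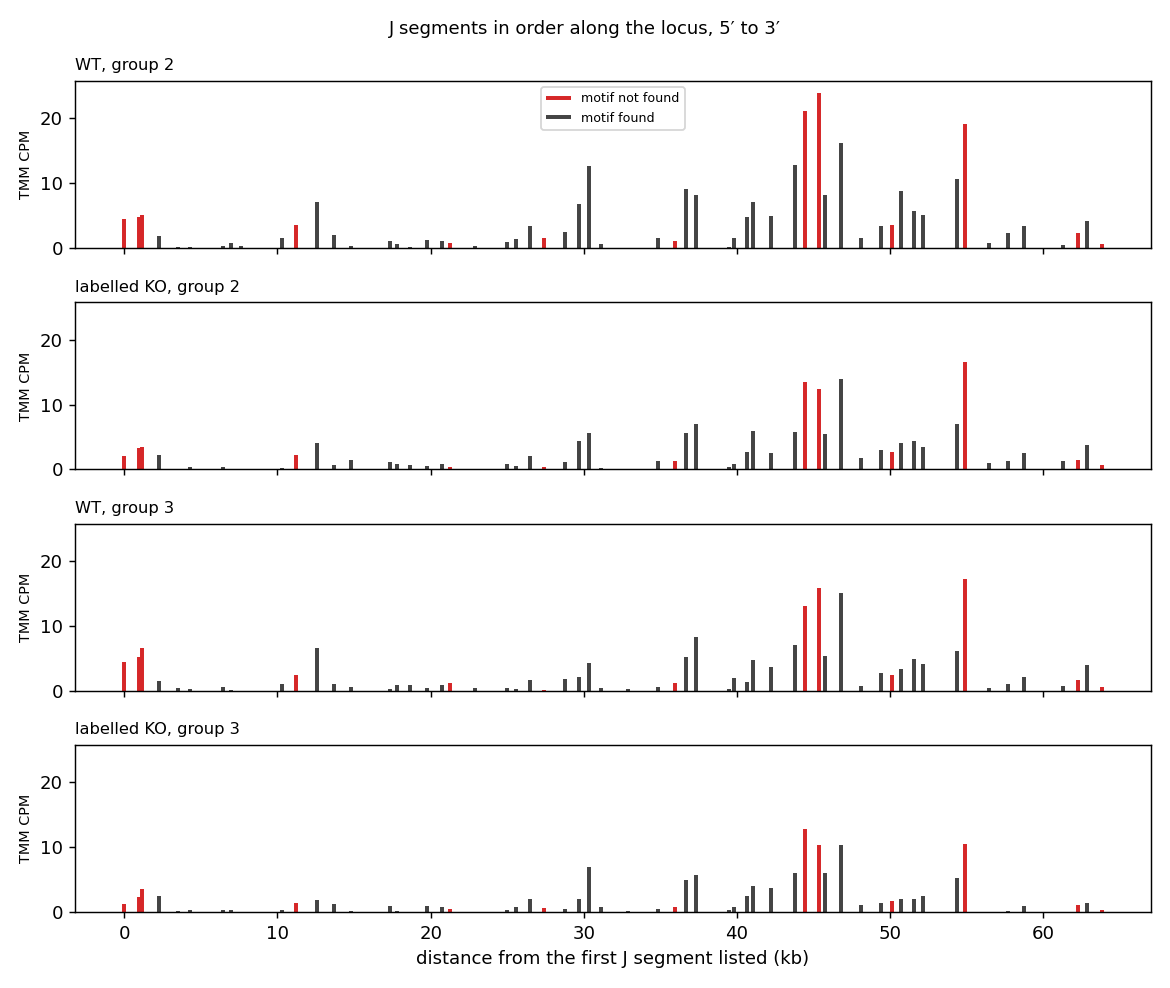
Level of each of the 59 J segments (y axis, TMM-scaled CPM) against its distance from Traj61 (x axis, kb), 1 panel per library; red marks segments without the motif. The highest lines, at Traj20, Traj19, Traj17 and Traj8, stand 44.4 to 54.9 kb from Traj61 in each library.

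The balance of 5′ and 3′ J segments did not move one way with the genotype label. The 5′ part held 14.4%, 19.2%, 14.5% and 14.8% of J counts, so WT group 3 was high and the others were alike. KO minus WT was 0.0107 points in group 2 (Newcombe interval -2.15 to 2.25) and -4.44 in group 3 (-7.22 to -1.64). With the cluster split at its middle instead, the group 3 difference was 0.134 points, so it depends on where the line is drawn. The middle part held 31.3%, 25.2%, 27.9% and 32.9%, with KO minus WT of -3.40 points in group 2 (-6.21 to -0.541) and 7.72 in group 3 (4.34 to 11.1). For the 3′ part the differences were 3.39 points (0.288 to 6.48) and -3.28 (-6.99 to 0.440). Over segments ranked from the 5′ end, the mean rank of a J count was 36.9, 36.2, 37.7 and 36.3.

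By level, the 5′ part had the lowest ratio in group 3. It stood at 0.668 of WT in group 2 (0.564 to 0.790) and 0.564 in group 3 (0.467 to 0.680). The middle part stood at 0.595 (0.529 to 0.669) and 0.959 (0.832 to 1.10), and the 3′ part at 0.709 (0.652 to 0.772) and 0.690 (0.623 to 0.765). The middle part of WT group 3 was itself low, at 0.565 of WT group 2 (0.499 to 0.638), which bears on its ratio in group 3.

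**Figure D4:**
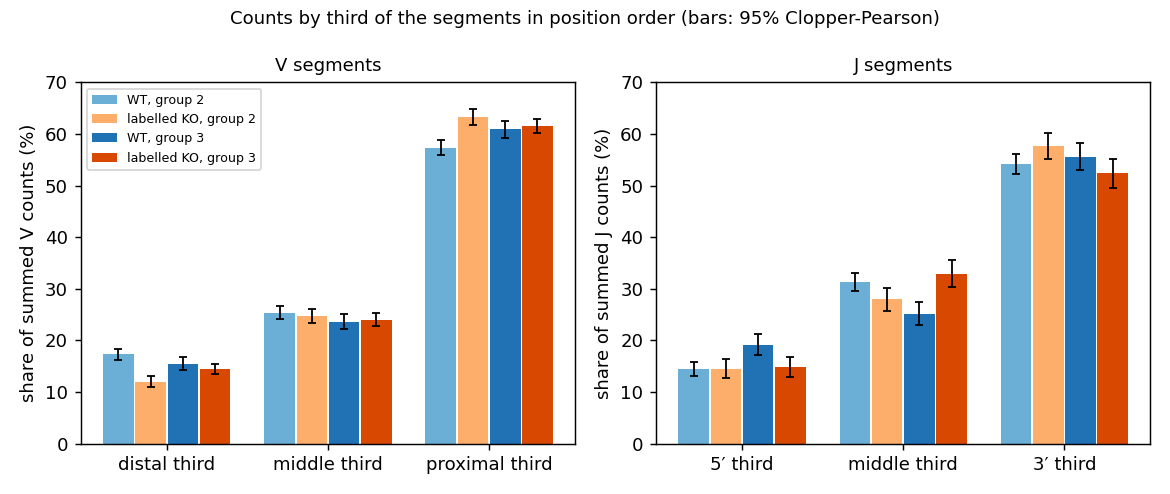
Share of the summed V counts (left) or J counts (right) held by each of 3 parts of the segments in position order (y axes, %, from 0) in the 4 libraries; error bars are 95% Clopper-Pearson intervals. The V distal part is lowest in KO group 2 at 11.96%, and the J middle part is lowest in WT group 3 at 25.2%.

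Single segments past 2-fold with an interval excluding 1 differed between the sorted groups. In group 2 the library labelled KO was lower for 4 of 32 measured J and 4 of 61 measured V segments, against 2.44% of genes, and higher for 0, against 6.45%. Traj33, with a mean share of 3.91%, had 133, 35, 49 and 67 counts, and its ratio in group 2 was 0.438 (0.309 to 0.612). WT group 2 stood alone at the top for Traj33, and in group 3 the ratio was 1.64 (1.07 to 2.54). Traj21 had 135, 58, 51 and 58 counts and a group 2 ratio of 0.449 (0.319 to 0.624), again with WT group 2 apart from the other libraries. Traj49 had 21, 8, 6 and 12 counts and a ratio of 0.340 (0.112 to 0.870). Trav5-1, a V segment of the distal end with a sequence of its own, had 54, 35, 10 and 30 counts. Its ratio was 0.220 in group 2 (0.100 to 0.437). KO group 2 was its lowest library, and KO group 3 also lay below both WT libraries.

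In group 3 the library labelled KO was lower for 7 of 32 J and 1 of 61 V segments, against 5.6% of genes. It was higher for 3 of 61 V segments, against 2.17%. Traj50 had 74, 54, 36 and 18 counts and a ratio of 0.285 (0.158 to 0.494), and Traj61 a ratio of 0.285 (0.135 to 0.561). Traj2, near the 3′ end, had 44, 33, 33 and 13 counts and a ratio of 0.337 (0.163 to 0.658). KO group 3 was the lowest library for all 3. Trav6d-3 had 30, 23, 17 and 6 counts and a ratio of 0.223 (0.0744 to 0.564). It is itself a d copy, with 1.01% of its runs of 50 bases to itself. Trav6-3, the segment nearest to it in sequence, had 144, 74, 132 and 116 counts, higher in KO than in WT in group 3. Reads of the pair may not be assignable. The V segments on the other side were copies too. Trav14n-3 had 136, 39, 80 and 130 counts (ratio 2.85, 1.98 to 4.19) and was low in WT group 3 alone. Trav14d-1 had 82, 41, 42 and 132 counts (ratio 2.76, 1.93 to 4.02) and was high in KO group 3 alone; it has no run of 50 bases to itself. Trav7n-4 had 54, 19, 35 and 58 counts (ratio 2.61, 1.53 to 4.65).

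From group 2 to group 3, Trav9-1 was the 1 member that passed edgeR's test. It was also the 1 member called by fold, on CPM plus 0.5, in both genotypes. It had 56, 105, 43 and 108 counts, so both group 3 libraries stood above both group 2 libraries. The ratios were 2.41 in WT (1.73 to 3.40) and 2.33 in the libraries labelled KO (1.62 to 3.40). edgeR's quasi-likelihood test gave a shared sorted group effect of 1.24 (log2, SE 0.35, adjusted p = 0.0161), the 1 member called higher where 2.21% of genes were; 0 members were called lower, where 1.14% of genes were. DESeq2 gave an adjusted p of 0.526 for Trav9-1, and the edgeR call was lost without any 1 library, in fits of the sorted group alone (adjusted p = 0.484 to 0.9997). At an unadjusted p under 0.05, Traj34 and Traj13 were lower (4.79% of genes) and Trav9-1 alone was higher (5.87%).

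By fold, the step in WT was higher for Trav9-1 (5.22% of genes) and lower for 2 V and 4 J segments (1.86%). Traj34 had 72, 18, 39 and 20 counts, and its ratio was 0.322 in WT (0.181 to 0.545) and 0.475 in the libraries labelled KO (0.263 to 0.835). The second ratio is past 2-fold but was not called, because the rule adds 0.5 CPM. Traj24 had 50, 11, 24 and 24 counts and a WT ratio of 0.283 (0.133 to 0.551), Traj33 a WT ratio of 0.339 (0.226 to 0.495) and Trav14n-3 of 0.369 (0.252 to 0.530). In the libraries labelled KO the ratios of Traj24 and Traj33 were 0.927 (0.504 to 1.70) and 1.27 (0.864 to 1.87). The step in those libraries was higher for Trav5-1, Trav14d-1 and Trav9-1 (1.85% of genes) and lower for Trav6d-3, Traj6, Traj5 and Traj2 (5.99%). Trav14d-1 had a ratio of 2.91 (2.04 to 4.23) and Trav5-1 of 2.78 (1.32 to 6.38). Traj6, with 25, 9, 11 and 2 counts, had a ratio of 0.169 (0.0182 to 0.772), and Traj5, with 36, 17, 23 and 9 counts, of 0.363 (0.148 to 0.814).

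The V array spans 1449 kb, and the 5 most counted V segments held 19.5%, 20.5%, 21.2% and 18.1% of V counts. Trav3-3 led with 193, 132, 187 and 204 counts, a mean share of 4.41%, followed by Trav14-1 (4.22%) and Trav13-1 (3.66%). Trav17, Trav9-2, Trav7-4, Trav8-2, Trav6-3, Trav14-2 and Trav4-4-dv10 had mean shares of 2.69% to 3.56%. Trav8-2 is annotated as a pseudogene, with a GENCODE M21 transcript of 337 bases. The deposited RPKM divide its counts by 1354 bases instead. On that length it stood at 9.64 to 12.5 RPKM, against 47.3 to 60.7 for Trav3-3, so its RPKM cannot be set beside the others. None of these 10 passed the edgeR test for either effect (lowest adjusted p = 0.592). Trav1, the first V segment by position, had 65, 33, 44 and 29 counts. Trav21-dv12, the last, had 84, 46, 57 and 53. Among the 9 members with 100 counts in every library, the pairs most alike in log2 share over the 4 libraries were Trav13-1 with Trav9-2 (Euclidean distance 0.306), Trav14-1 with Trav3-3 (0.328) and Trav7-4 with Trav17 (0.330).

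The V segments nearest the J cluster held most V counts, and the distal ones were low in the library labelled KO in group 2. The proximal part of 34 segments held 57.4%, 60.9%, 63.3% and 61.6%. The distal part of 35 held 17.3%, 15.5%, 11.96% and 14.4%. KO minus WT for the distal part was -5.33 points in group 2 (-6.82 to -3.82) and -1.04 in group 3 (-2.67 to 0.556). Without the d and n copies the group 2 difference was -2.39 points. Of the 21 V segments at 0, 10 lie in the distal part, 11 in the middle part and 0 in the proximal part, so these shares depend on how reads of near-identical copies were counted. By level, the distal part stood at 0.638 of WT in group 2 (0.567 to 0.717) and 1.15 in group 3 (1.02 to 1.29). Of 15 measured distal V segments, 14 had a log2 ratio below 0 in group 2 and 6 did in group 3. The proximal part stood at 1.02 in group 2 (0.962 to 1.07) and 1.25 in group 3 (1.18 to 1.32). The d and n copies together stood at 0.759 (0.695 to 0.828) and 1.27 (1.16 to 1.40).

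**Figure D5:**
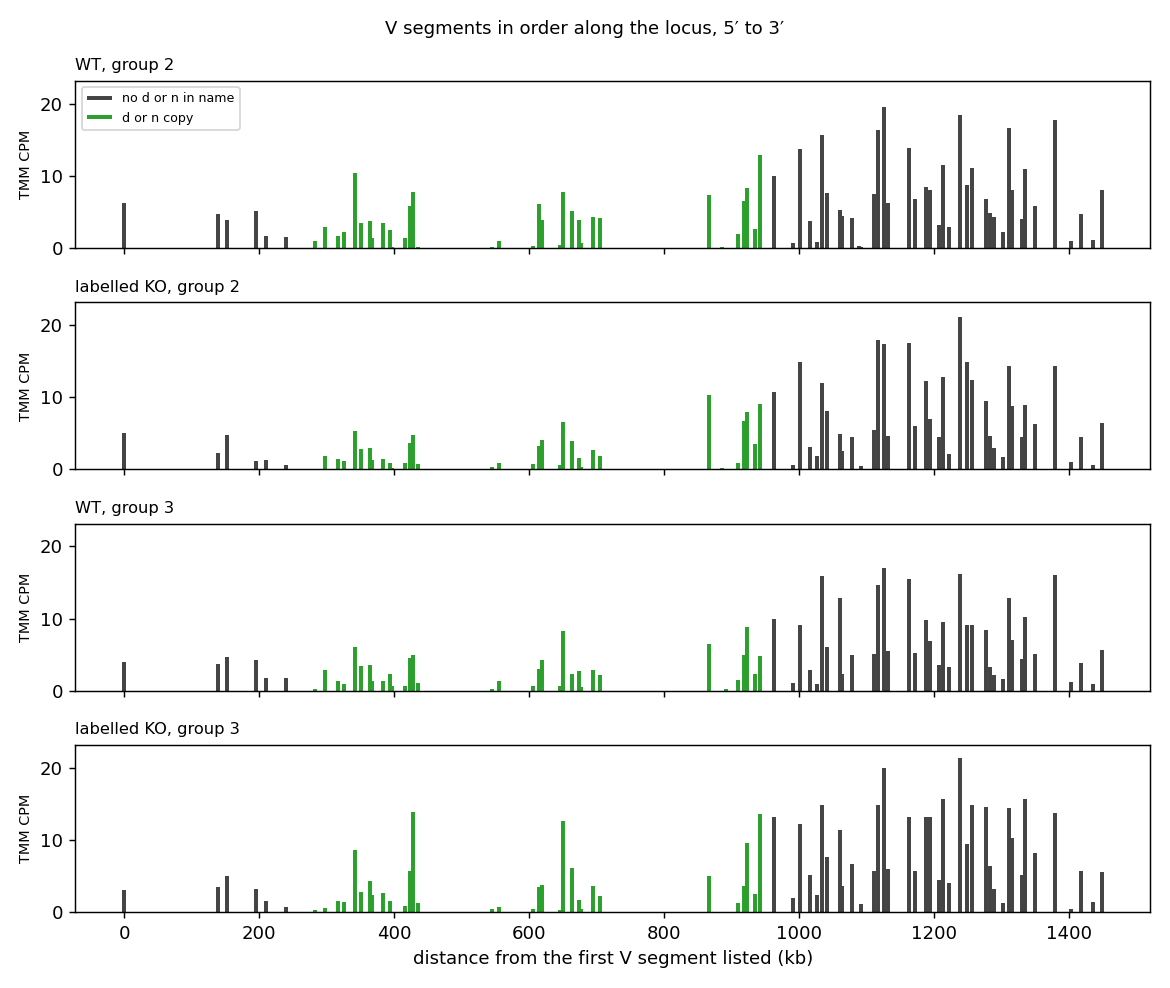
Level of each of the 103 V segments (y axis, TMM-scaled CPM) against its distance from Trav1 (x axis, kb), 1 panel per library; green marks d or n copies. Lines are taller on the right, the side of the J cluster, and gaps among the green lines are copies listed at 0.

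Among V families, Trav14 and Trav9 held the largest mean shares, 15.7% and 11.2%. The 9 Trav14 segments had 741, 448, 525 and 873 counts, with KO over WT ratios of 0.842 in group 2 (0.752 to 0.943) and 1.67 in group 3 (1.49 to 1.87). The 11 Trav9 segments went the other way, with 461, 420, 469 and 435 counts and ratios of 1.21 (1.06 to 1.38) and 0.887 (0.774 to 1.02). Trav12, with 266, 184, 226 and 313 counts, had ratios of 1.01 (0.842 to 1.21) and 1.46 (1.21 to 1.76). V segments whose names carry dv, which can also join in the delta chain, held 10.8%, 11.4%, 11.04% and 12.3% of V counts. Over single V segments the median log2 ratio was -0.22 in group 2 and 0.27 in group 3. Over the 23 V segments that reached 10 CPM it was 0.10 in group 2 and 0.40 in group 3. Scaled to the summed V counts it was -0.10 and 0.00.

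Receptors with fixed segments can be looked for. Invariant NKT cells join Trav11 to Traj18, and MAIT cells join Trav1 to Traj33. Trav11 had 1, 0, 4 and 11 counts and its copy Trav11d 1, 5, 2 and 0, so both were below 2 CPM. No fold is given for either alone. Neither has a sequence of its own, so reads of the pair may not be assignable. Summed, the pair had 2, 5, 6 and 11 counts, higher in KO than in WT in both sorted groups. The intervals of both KO over WT ratios of this sum included 1, so counting error does not separate them from it. Traj18 had 85, 44, 48 and 58 counts, with KO over WT ratios of 0.671 (0.461 to 0.968) and 1.13 (0.750 to 1.71). Trav1 had ratios of 0.805 (0.536 to 1.20) and 0.752 (0.441 to 1.28), which counting error does not separate from 1. Zbtb16, the factor PLZF that both cell types need, had 26, 22, 7 and 1 counts (edgeR adjusted p = 0.337 for genotype). Its KO over WT ratios were 0.320 (0.117 to 0.757) and, from 1 count in KO group 3, 0.0389 (0.000943 to 0.241). Klrb1c, a receptor of NK and NKT cells, had 70, 30, 13 and 23 counts and a group 2 ratio of 0.221 (0.112 to 0.403). Its group 3 ratio was 0.656 (0.364 to 1.17), which counting error does not separate from 1. Tbx21, the factor T-bet, had 19, 25, 2 and 18 counts. Slamf6, Il2rb and Cxcr6, the remaining markers, had shared genotype effects of 0.06, 0.10 and -0.15 (log2). Cxcr6 was lower in KO in group 2, with a ratio of 0.733 (0.550 to 0.972). In group 3 its ratio was 1.13 (0.796 to 1.60). Slamf6 and Il2rb did not share the group 2 fall, with ratios of 1.07 and 1.22, and had group 3 ratios of 1.02 and 0.935. None of the 6 marker genes of these cells passed the edgeR test for either effect, and their median genotype effect was -0.76 (log2). Their summed level was 329, 279, 342 and 278 CPM, of which Slamf6 alone made up 282, 231, 302 and 236 CPM.

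The machinery that joins the segments was partly lower in the libraries labelled KO. Of 19 recombinase and DNA joining genes, 5 fell and 0 rose for the shared genotype effect in edgeR's quasi-likelihood test, where 1.87% of genes fell and 2.95% rose, with a list median of -0.24 (log2) against 0.00 for all measured genes. Rag1 and Rag2, the recombinase itself, had 3377, 2073, 2006 and 1454 counts and 1803, 979, 781 and 760 counts. Rag1 fell by 0.62 (log2, SE 0.15, edgeR adjusted p = 0.00143) and Rag2 by 0.77 (SE 0.16, edgeR adjusted p = 6.81e-05); both passed with DESeq2. Hmgb2, a DNA-bending cofactor of the RAG complex, fell by 0.52 (SE 0.12), Hmgb1 by 0.39 (SE 0.12) and Xrcc6, the Ku70 end-binding protein, by 0.45 (SE 0.14). Hmgb1 and Xrcc6 missed 0.05 with DESeq2 (adjusted p = 0.111 and 0.0839). From group 2 to group 3, 1 of the 19 fell (1.14% of genes), Dntt, the polymerase that adds bases at the joint (-0.39, SE 0.12, edgeR adjusted p = 0.048; DESeq2 0.207).

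Of 20 factors known for the alpha enhancer, the folding of the locus or double-positive survival, 1 fell for genotype (1.87% of genes) and 0 rose (2.95%). Satb1, a chromatin organiser of thymocytes, fell by 0.36 (SE 0.11, edgeR adjusted p = 0.0315; DESeq2 0.201). Bcl2l1, a survival factor of double-positive cells, had an effect of -0.04 (SE 0.14) and did not pass. For the step, 3 of the 20 fell (1.14% of genes): Myb (-0.67, SE 0.14), the cohesin subunit Rad21 (-0.71, SE 0.17) and Ikzf1 (-0.56, SE 0.14). DESeq2 kept Myb and Ikzf1 and gave 0.128 for Rad21. Of 7 partner chains, Ptcra, the pre-T alpha chain of the earlier receptor, had 755, 570, 305 and 249 counts and fell by 1.24 (SE 0.19, edgeR adjusted p = 8.03e-09). For the step, 2 of the 7 fell (1.14% of genes), the beta constant regions Trbc1 (-0.40, SE 0.12) and Trbc2 (-0.37, SE 0.11). Neither passed with DESeq2. Their step ratios were 0.900 and 0.926 in WT and 0.639 and 0.643 in the libraries labelled KO, so the fall was mostly in the latter. The delta segments inside the alpha locus had 5 of 10 genes measured with Trac among them, and 0 passed for either effect.

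Markers of other stages also differed between the libraries. Of 8 double-positive markers 3 fell for genotype (Rag1, Rag2 and Ptcra; 1.87% of genes) and 2 for the step (Dntt and Cd8b1; 1.14%), and their summed level was 9608, 8589, 8876 and 6503 CPM. Of 6 markers of maturing thymocytes 5 rose in group 3 (2.21% of genes), with Ccr7 at 1.75 (log2, SE 0.14) and Gimap4 at 1.78 (SE 0.15). Their summed level was 963, 1909, 1081 and 2062 CPM. None of 5 gamma delta markers, 5 B cell markers, 4 thymic epithelium markers or 3 erythroid markers passed for either effect. Of 5 macrophage and dendritic cell markers, C1qb rose for genotype by 1.12 (SE 0.34; DESeq2 adjusted p = 0.553), and their sum was 44.0, 48.7, 64.7 and 82.1 CPM. Foxn1, Krt5 and Psmb11 of thymic epithelium had 6 counts or fewer in any library. The part of cell make-up in the J and V differences was not tested.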

How the data were processed

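RNA from 4 libraries of sorted mouse thymocytes, 1 per genotype and sorted group, was analysed from the deposited tables. The authors deposited raw counts per Ensembl gene. The submitters' processing notes name TopHat2 2.0.12 and the build mm10. What counted the reads, and with which strand setting, is not given in the sources used here. The authors also deposited RPKM values, which divide each count by library total and gene length (a whole length in 100% of genes, tolerance 0.01 bases). Reads shared by near-identical V copies may have been split or dropped by that counting, and overlapping genes cannot be told apart. GENCODE M21 matched 34490 of 35275 IDs; the 785 others held 0.119% to 0.128% of counts and stayed in the library totals.

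Genes with 2 CPM in at least 1 library (12490) were tested with edgeR 4.0.16 (quasi-likelihood, R 4.3.3) for genotype and sorted group together, which leaves 1 residual degree of freedom and treats genotype effects as equal in both sorted groups; p-values were adjusted by Benjamini-Hochberg with a threshold of 0.05. DESeq2 1.42.0 was an alternative. Single comparisons used ratios of TMM-scaled CPM, with exact conditional binomial 95% intervals (SciPy 1.17.1), and were called past 2-fold on the log2(CPM + 0.5) scale where the interval excluded 1. Shares have Clopper-Pearson intervals and differences of shares Newcombe intervals. A V share of 0 allows up to 0.0629% to 0.0935% of V counts (3 counts, a one-sided limit). Segments were split by rank along the chromosome into 3 parts of like number. The test was tested on simulated data.

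The segments and gene lists were chosen with earlier results of these data known. Segments were named by a rule: the 10 V and 10 J segments with the largest mean share, members called by edgeR, the 4 highest and lowest past the fold rule in each comparison, the first and last segments, those of the invariant NKT and MAIT receptors, and list genes called; some list genes are not reported here. Traj49, Traj50, Traj58 and the other segments named with a count were named after their values were seen. Alternatives changed the scaling, filter, pseudocount, segments summed, position split and libraries used.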

Additional observations from a re-analysis of the deposited data

Results flagged for a closer look

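Several levels stood on opposite sides of WT in the 2 sorted groups, with 1 library on each side, and the difference between the groups was not tested. The KO over WT ratio of the summed V level was 0.922 in group 2 and 1.23 in group 3. For the distal V part it was 0.638 and 1.15, for the middle V part 0.901 and 1.25, and for the d and n copies 0.759 and 1.27. Among V families, the ratios were 0.812 and 1.20 for Trav6, 0.776 and 1.30 for Trav7, 0.732 and 1.42 for Trav10, and 0.842 and 1.67 for Trav14. Trac went the other way, with 1.23 in group 2 and 0.876 in group 3. For the share of J counts in the middle J part, KO minus WT was -3.40 points in group 2 and 7.72 points in group 3.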

How the results depend on the processing

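No paired analysis was possible because each combination of genotype and sorted group has 1 library, whose replicate number only follows accession order; the genotype fit holds sorted group as a term, and the sorted group fit genotype. Of the sums, shares and counts of called members under these alternatives, 137 values stayed within counting error (counts within 1.5 times), 32 moved further and 3 reversed. The 1 member higher for the sorted group effect, Trav9-1, became 0 with filterByExpr (adjusted p = 0.0589), without the other factor (0.430), with DESeq2 (0.526) and without any 1 library (0 to 0 members). Those last fits hold the sorted group alone, and the lone library of an arm is assumed to vary like the other arm. By fold, 8 members lower in KO in group 2 became 2 at 10 CPM, 1 with a pseudocount of 2 and 1 when scaled to the summed V or J counts, and the 0 higher became 1 with no filter. In group 3, 8 lower became 0 at 10 CPM, 1 with that pseudocount and 3 when so scaled, and 3 higher became 5 when so scaled. For the WT step, 6 lower became 2 at 10 CPM and 2 when scaled, and 1 higher became 2 with no filter. For the KO step, 4 lower became 7 with no filter, 0 at 10 CPM and 0 with that pseudocount, and 3 higher became 1 with that pseudocount and 1 when scaled. With the segments split at the middle into 2 in place of 3 parts, the 5′ J share differed by -2.83 points in group 2, 0.134 in group 3 (reversed from -4.44) and -0.501 for the WT step (reversed from 4.77), and the distal V share by -6.84 in group 2. Without d or n copies the distal V share differed by -2.39 in group 2 and by -0.0023 for the KO step (reversed from 2.49), and the summed V ratio was 0.984 in group 2 and 0.912 for the WT step. DESeq2 size factors gave a summed V ratio of 1.21 for the KO step. The summed J ratio was 0.657 in group 3 and 0.787 for the WT step over segments without the motif, and 0.658 for the WT step over those with it. At 10 CPM the median log2 ratio of V segments in group 2 was 0.10 in place of -0.22. The causes were not tested. The alternatives that sum other segments were chosen after seeing the data. With 1280 to 2735 J counts per library, single J segments rest on few counts.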
